A study of Mus musculus with 6 samples.

Results

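The enzymes that break down the branched-chain amino acids (BCAA) leucine, isoleucine and valine were examined in brown adipose tissue (BAT) of mice lacking Letmd1. They were followed through 10 genes chosen by symbol, Bcat2, Bckdha, Bckdhb, Dbt, Bckdk, Ivd, Mccc1, Hibch, Pcca and Pccb. The choice was made with earlier results of these data known. Each of the 10 was found in 1 of the 23282 gene rows of every mouse, and all 10 were among the 12995 genes that passed the filter on low counts. RNA came from the whole interscapular depot of male C57BL/6N mice at 5 weeks of age, 3 wild-type and 3 Letmd1 KO. The Letmd1 KO mice carried, in all tissues, a knockout-first allele from 1 embryonic stem cell clone, in which a lacZ and neomycin resistance cassette sits in an intron of Letmd1. QuantSeq libraries, which read the 3′ end of each mRNA, gave between 6669577 and 14574273 counts per mouse. All levels here are of mRNA, and protein of these enzymes was not measured. The labels do not say whether these mice shared a litter, and the p-values measure the spread between these 6 samples.

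Breakdown of BCAA takes place in mitochondria and begins with transamination by BCAT2, which hands the amino group to 2-oxoglutarate and leaves a branched-chain keto acid. The branched-chain keto acid dehydrogenase (BCKDH) complex then removes carbon dioxide in the committed step, and is switched off by the kinase BCKDK and on by the phosphatase PPM1K. The branches then separate, with leucine yielding acetyl-CoA and acetoacetate, valine propionyl-CoA, and isoleucine acetyl-CoA and propionyl-CoA. Propionyl-CoA carboxylase (PCC) starts the conversion of propionyl-CoA to succinyl-CoA. BAT is known to take up BCAA and to oxidise them in mitochondria during thermogenesis, through the carrier SLC25A44.

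Of the 10 enzymes, 6 were lower in Letmd1 KO BAT, 1 was higher and 3 did not pass the test. Pcca and Ivd fell most, Bckdha, Bckdk, Pccb and Hibch fell less, Bcat2 rose, and Bckdhb, Dbt and Mccc1 did not pass. Calls were made at an adjusted p under 0.05 from the quasi-likelihood test of edgeR, with p-values adjusted by Benjamini-Hochberg over all genes tested. Among all genes tested 22.3% were called lower and 23.7% higher, with a median log2 fold change of 0.033, against a median of -0.62 for the 10 enzymes. In 6 of the 10 every KO mouse lay below every wild-type mouse, a pattern that 27.2% of all genes tested showed. In 1 of the 10 every KO mouse lay above, as in 30.1% of all genes tested. Summed over the 10 genes, the level ran from 1882 to 1938 CPM (counts relative to library sizes scaled by the TMM method of edgeR) in wild-type BAT and from 1217 to 1493 CPM in Letmd1 KO BAT.

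These directions depend in part on how the libraries are put on 1 scale. TMM factors were between 0.852 and 0.886 in the wild-type mice and between 1.13 and 1.17 in the KO mice, and with library size as the only scaling the median over all genes tested was 0.45 in place of 0.033 (log2 fold change). That scaling called 1368 genes lower and 5899 higher, where TMM called 2896 and 3082, and it called 3 of the 10 enzymes lower (Bckdha, Ivd and Pcca) and 3 higher (Bcat2, Dbt and Mccc1). Bckdha, Ivd and Pcca were lower and Bcat2 was higher under TMM, under library size alone and under quantile normalization. With that all-gene median subtracted, the log2 fold changes under library size alone were -0.70 for Bckdk, -0.62 for Hibch and -0.69 for Pccb. They were -0.12 for Bckdhb, -0.11 for Dbt and -0.069 for Mccc1. Because this scaling shifts all genes by nearly the same amount, the subtraction returns about the TMM values and is no separate support for them. Under quantile normalization the same subtraction gave -0.46 for Bckdk and -0.245 for Hibch and Pccb. It gave 0.17 for Bckdhb, 0.27 for Dbt and 0.21 for Mccc1. All other changes are those under TMM.

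The labels matched the targeted gene and the tissue. Letmd1 was counted 5658, 6490 and 5266 times in wild-type BAT and 0, 0 and 1 times in KO BAT, at least 2197-fold lower against a floor of 3 counts per library (edgeR adjusted p = 1.38e-08). All 10 brown adipocyte markers were detected, and 8 of them, in bulk tissue where fewer adipocytes and less RNA per adipocyte cannot be told apart, were lower in Letmd1 KO BAT. Their summed level was between 39730 and 45460 CPM in wild-type BAT and between 12300 and 16140 CPM in KO BAT. Markers of macrophages and fibroblasts rose, with 13 of 13 macrophage genes (summed level 199.9 to 287.4 CPM against 1694 to 3295 CPM) and 8 of 8 fibroblast genes (2195 to 2900 CPM against 5967 to 10330 CPM) higher. Of 10 endothelial markers, 4 were lower and 1 was higher (817 to 881.1 CPM against 526.5 to 675.2 CPM). Of 15 skeletal muscle markers, 3 were higher, and their sum was 117.3, 599.7 and 140.7 CPM in the wild-type mice and 583.3, 442.9 and 1547 CPM in the KO mice. In wild-type mice 7 of these muscle markers were at 0 in at least 1 library. The part of the cell mixture in the changes of the 10 enzymes was not tested.

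**Figure D1:**
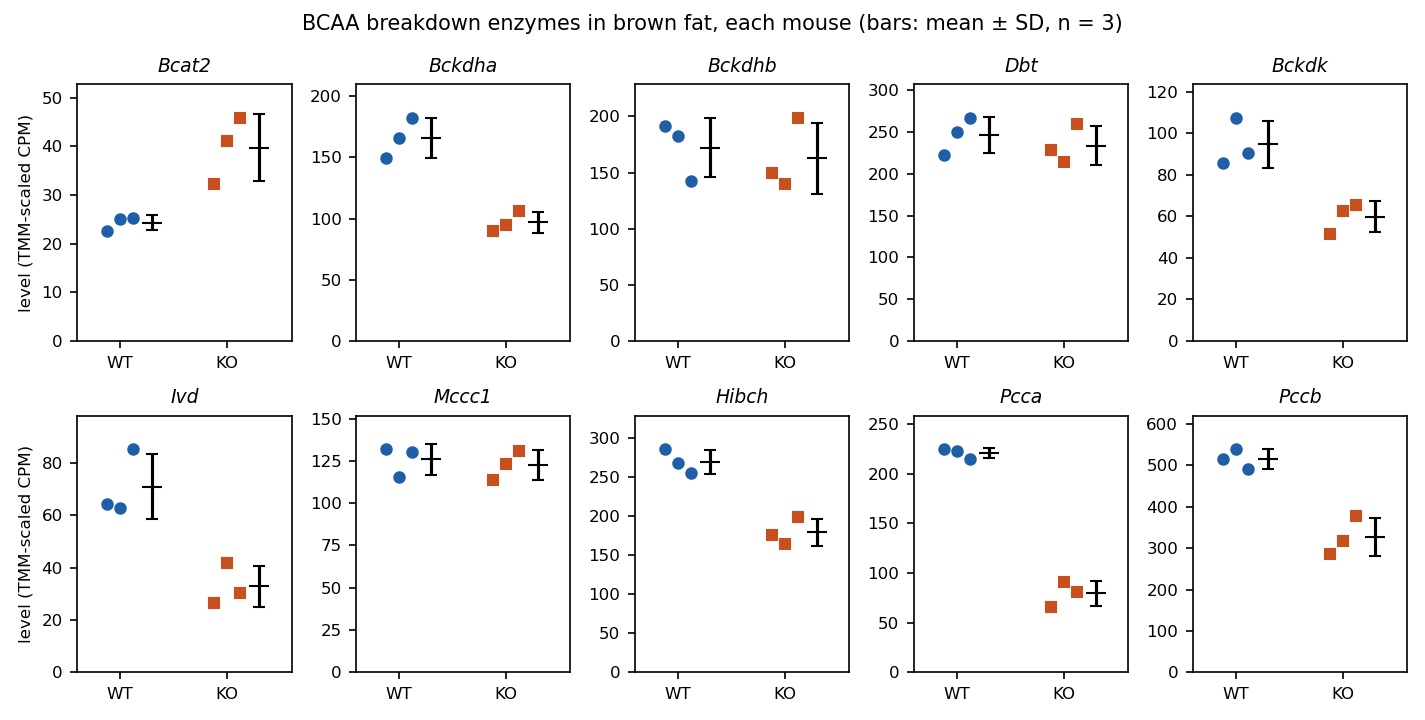
Level of each of the 10 enzymes in each mouse, in TMM-scaled CPM on axes that start at 0, with circles for wild-type mice, squares for Letmd1 KO mice and bars for the mean ± SD of 3 mice. The KO squares lie below all wild-type circles for Bckdha, Bckdk, Ivd, Hibch, Pcca and Pccb, lie above them for Bcat2, and overlap them for Bckdhb, Dbt and Mccc1.

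In wild-type BAT the 10 genes spanned levels from 24.3 ± 1.55 CPM for Bcat2 to 514 ± 24.1 CPM for Pccb (SD, n = 3). Because each transcript gives reads at its 3′ end only, these counts do not scale with transcript length and the levels were set side by side. Hibch (269 CPM), Dbt (247 CPM) and Pcca (221 CPM) followed Pccb, then Bckdhb (172 CPM) and Bckdha (166 CPM), and Mccc1 (126 CPM), Bckdk (94.7 CPM) and Ivd (70.7 CPM) came before Bcat2. The wild-type values of Hibch and Dbt overlapped, as did those of Dbt and Pcca and those of Bckdhb and Bckdha. In Letmd1 KO BAT the order differed. Pccb was still first at 326 ± 46.3 CPM (SD, n = 3), Dbt was next at 234 CPM, Pcca stood below Bckdha at 79.6 CPM, and Ivd was last at 32.8 CPM, below Bcat2 at 39.7 CPM. In the KO mice the values of Ivd and Bcat2 overlapped, as did those of Pcca and Bckdha.

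Bcat2, which encodes the mitochondrial branched-chain aminotransferase, had 22.5, 25.1 and 25.3 CPM in the wild-type mice and 32.3, 41.0 and 45.8 CPM in the KO mice. Every KO mouse lay above every wild-type mouse. The mean rose from 24.3 ± 1.55 to 39.7 ± 6.85 CPM (SD, n = 3), a log2 fold change of 0.71 ± 0.16 (SE, edgeR adjusted p = 0.00509). Bcat2 is also known as an abundant enzyme of skeletal muscle. With the muscle markers of each mouse as a covariate, its log2 fold change was 0.59 ± 0.25 (SE). It did not pass the test there (edgeR adjusted p = 0.113). Mean log2 CPM of these markers was -0.088, 4.71 and -0.038 in wild-type mice and 4.78, 4.39 and 6.26 in KO mice. This covariate thus runs largely with genotype, and with it the genes called over all genes fell from 5978 to 3507. The part of muscle in the rise of Bcat2 cannot be told apart from genotype in this way and was not tested further. Bcat1, the cytosolic aminotransferase, was a gene of few counts, counted 34, 22 and 7 times in wild-type BAT and 63, 45 and 86 times in KO BAT. Its mean was 2.30 ± 1.38 CPM in wild-type and 5.98 ± 0.933 CPM in Letmd1 KO BAT (SD, n = 3), a log2 fold change of 1.34 ± 0.43 (SE, edgeR adjusted p = 0.0286). That call was lost without wild-type mouse 2 (adjusted p = 0.0755), KO mouse 1 (0.0957) or KO mouse 2 (0.0536), and with the muscle covariate (0.149), all from edgeR, and under quantile normalization with limma (0.0855).

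The 250 bases before the start of Bcat2 (RefSeq, GRCm38.p6, chr7:45569903-45570152, plus strand) are shown because it was the only 1 of the 10 genes called higher. In this and the later promoters, capitals mark matches to any of 5 motifs described further on, and this stretch has none. In GENCODE vM21 on GRCm38 the gene runs from 45570153 to 45589711 on the plus strand of chromosome 7.
Bcat2: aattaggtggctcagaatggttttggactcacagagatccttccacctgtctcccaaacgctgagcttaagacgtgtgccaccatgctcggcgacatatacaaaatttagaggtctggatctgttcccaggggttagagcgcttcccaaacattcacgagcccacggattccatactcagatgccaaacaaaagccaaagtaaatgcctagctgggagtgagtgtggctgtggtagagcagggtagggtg

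Within the BCKDH complex, mRNA levels were not lowered evenly. Its E1 component is made of an alpha subunit encoded by Bckdha and a beta subunit encoded by Bckdhb, its E2 core of the transacylase encoded by Dbt, and its E3 of the dehydrogenase encoded by Dld, which other complexes share. Bckdha and Dld fell, and Bckdhb and Dbt did not pass the test. Bckdha had 149, 166 and 182 CPM in the wild-type mice and 89.7, 94.6 and 106 CPM in the KO mice. All KO mice were below all wild-type mice, and the mean fell from 166 ± 16.4 to 96.9 ± 8.59 CPM (SD, n = 3), a log2 fold change of -0.77 ± 0.12 (SE, edgeR adjusted p = 0.000676). Bckdhb had 192, 183 and 142 CPM against 149, 139 and 199 CPM. The groups overlapped fully, with the highest and the lowest value both in KO mice. Its log2 fold change was -0.083 with a 95% interval from -0.45 to 0.28 (edgeR adjusted p = 0.707), and it turned to 0.34 under library size alone, 0.12 under quantile normalization and 0.015 without KO mouse 2. Dbt had 223, 249.6 and 267 CPM against 228, 214 and 259.9 CPM. These groups overlapped too, with a log2 fold change of -0.075 and a 95% interval from -0.34 to 0.19 (edgeR adjusted p = 0.635), which turned to 0.35 under library size alone and 0.22 under quantile normalization. Dld fell from 638 ± 24.6 to 243 ± 24.0 CPM (SD, n = 3), a log2 fold change of -1.39 ± 0.12 (SE, edgeR adjusted p = 2.42e-05).

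The intervals of Bckdhb and Dbt leave room for a decrease to a log2 fold change of -0.45 and -0.34. Decreases of these genes within those limits were thus not excluded with 3 mice in each group. Ratios of 2 genes within a mouse do not move with the scaling of the libraries. The log2 ratio of Bckdha to Bckdhb was -0.36, -0.14 and 0.36 in wild-type mice and -0.74, -0.56 and -0.90 in the KO mice. The log2 ratio of Bckdha to Dbt was -0.58, -0.59 and -0.55 in wild-type mice and -1.34, -1.17 and -1.29 in the KO mice. In both ratios every KO mouse was below every wild-type mouse, with mean differences of -0.68 and -0.70. These ratios were chosen after the values had been seen and were not tested. The last exon of Bckdha, on the minus strand of chromosome 7 (25629946 to 25658981), is overlapped on the opposite strand by B3gnt8, and whether strand was used in counting is not stated. B3gnt8 was counted in a row of its own at 4.35 CPM in wild-type and 8.83 CPM in KO BAT, opposite in direction to Bckdha. Bckdhb lies on chromosome 9 (83925145 to 84124240) and Dbt on chromosome 3 (116513070 to 116549981), both on the plus strand.

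The pyruvate dehydrogenase (PDH) and 2-oxoglutarate dehydrogenase (OGDH) complexes are built on the same plan as BCKDH and use the same E3. All 6 of their listed genes were lower in Letmd1 KO BAT, with a median log2 fold change of -1.53 and a range from -1.90 for Pdha1 to -1.24 for Pdhx. The E2 genes of the 3 complexes had 95% intervals from -1.87 to -1.37 for Dlat of PDH, from -1.98 to -1.30 for Dlst of OGDH and from -0.34 to 0.19 for Dbt of BCKDH. The interval of Dbt did not meet the other two, and the difference between the E2 genes was not tested. Dlat and Dlst were named here after their values were seen.

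**Figure D2:**
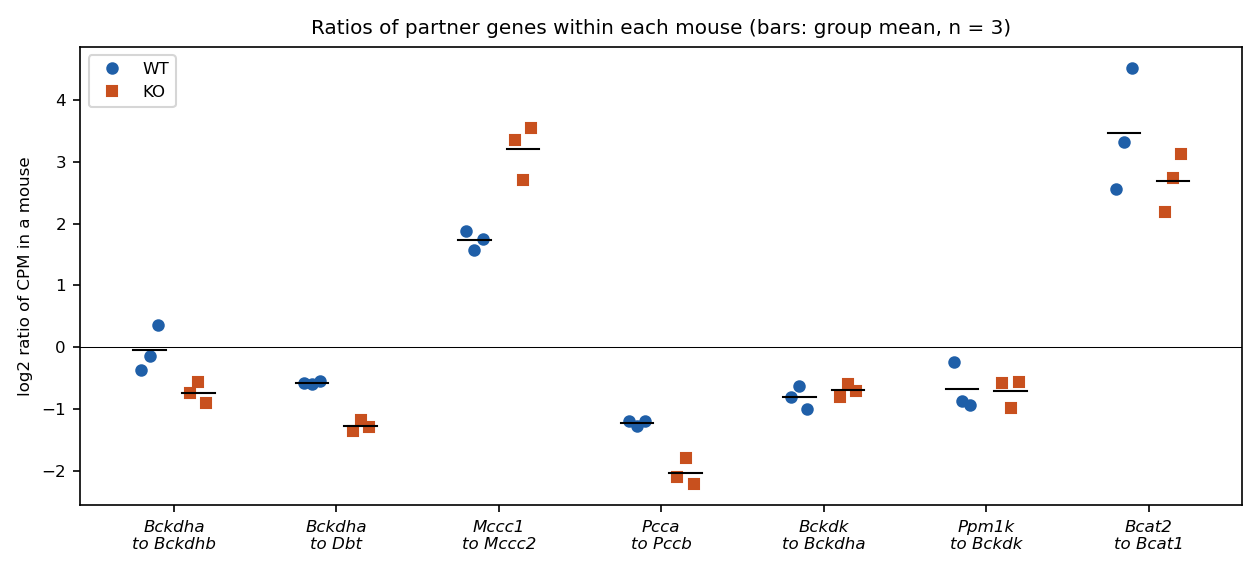
Log2 ratio of CPM of 2 partner genes in each mouse, with circles for wild-type mice, squares for Letmd1 KO mice and a bar at the mean of 3 mice. The groups separate for Bckdha to Bckdhb, Bckdha to Dbt, Mccc1 to Mccc2 and Pcca to Pccb, the 4 ratios chosen after the values had been seen, and overlap for Bckdk to Bckdha, Ppm1k to Bckdk and Bcat2 to Bcat1.

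The mRNAs of both enzymes that switch BCKDH by phosphorylation were lower. Bckdk, the kinase that inactivates E1, had 85.8, 107 and 90.7 CPM in the wild-type mice and 51.5, 62.6 and 65.5 CPM in the KO mice. The groups did not overlap, and the mean fell from 94.7 ± 11.3 to 59.9 ± 7.35 CPM (SD, n = 3), a log2 fold change of -0.66 ± 0.13 (SE, edgeR adjusted p = 0.00335) that was -0.24 and not called under library size alone. Ppm1k, the phosphatase that reactivates E1, fell from 59.7 ± 12.5 to 36.7 ± 6.57 CPM (SD, n = 3), a log2 fold change of -0.70 ± 0.18 (SE, edgeR adjusted p = 0.0126), and this call was lost without KO mouse 1 (edgeR adjusted p = 0.0517), under library size alone (0.239) and with the muscle covariate (0.0687). Ratios among kinase, phosphatase and substrate, and between the aminotransferases, overlapped between the genotypes. The log2 ratio of Ppm1k to Bckdk was -0.68 ± 0.38 in wild-type and -0.71 ± 0.24 in KO BAT (SD, n = 3), a difference of -0.032 (two-sided exact permutation p = 0.9, adjusted p = 0.9 over 3 ratios), which turned to 0.19 without wild-type mouse 1 and to 0.11 without KO mouse 2. The log2 ratio of Bckdk to Bckdha differed by 0.11 (exact permutation p = 0.4, adjusted p = 0.6), and that of Bcat2 to Bcat1 by -0.78 (exact permutation p = 0.3, adjusted p = 0.6). With 3 mice against 3 the smallest p such a test can give is 0.1, so none of these ratios could have passed. Bckdk occupies 127904082 to 127910221 of chromosome 7, plus strand.

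In the leucine branch Ivd fell, Mccc1 did not pass the test and its partner Mccc2 fell. Ivd, the isovaleryl-CoA dehydrogenase that takes the first step specific to leucine, had 64.4, 62.9 and 85.0 CPM in the wild-type mice and 26.5, 41.7 and 30.2 CPM in the KO mice. The highest KO value was 41.7 CPM and the lowest wild-type value was 62.9 CPM. The mean fell from 70.7 ± 12.4 to 32.8 ± 7.92 CPM (SD, n = 3), to 46.4% of wild-type, a log2 fold change of -1.11 ± 0.19 (SE, edgeR adjusted p = 0.00132). Mccc1 and Mccc2 encode the alpha and beta subunits of 3-methylcrotonyl-CoA carboxylase (MCC), the biotin enzyme of the next step. Mccc1 had 132, 115 and 130.5 CPM against 114, 123 and 131 CPM. The groups overlapped, and the log2 fold change was -0.037 with a 95% interval from -0.28 to 0.20 (edgeR adjusted p = 0.803). It turned to 0.38 under library size alone, 0.16 under quantile normalization and 0.0143 without KO mouse 1. Mccc2 had 35.5, 38.7 and 38.6 CPM against 11.0, 18.8 and 11.0 CPM, a log2 fold change of -1.48 ± 0.21 (SE, edgeR adjusted p = 0.000475). The log2 ratio of Mccc1 to Mccc2 was 1.89, 1.57 and 1.75 in wild-type mice and 3.35, 2.70 and 3.55 in the KO mice. No KO mouse overlapped a wild-type mouse in this ratio, which differed by 1.46 and was chosen after the values had been seen. The last exon of Mccc1 is overlapped on the opposite strand by Gm15952, a gene that has no row of its own in the counts, so reads of it could have been counted as Mccc1. Auh, the hydratase of the following step, also fell, with a log2 fold change of -0.58. It was at -0.16 and not called under library size alone, and was not called with the muscle covariate (edgeR adjusted p = 0.0641).

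The promoters of Ivd and Mccc1 are shown together because the first gene fell and the other did not pass the test, 1 enzymatic step apart. Ivd occupies 118861954 to 118882909 of chromosome 2, plus strand, and its 250 bases are chr2:118861744-118861993. The RefSeq start of Ivd differs from the GENCODE start, and the last 40 of these bases lie inside the GENCODE gene. Mccc1 occupies 35959312 to 36000678 of chromosome 3, minus strand, and its 250 bases are chr3:36000679-36000928, written 5′ to 3′ on the strand of the gene. The capitals in both are CCAAT boxes, written ATTGG where the box is on the opposite strand, 4 in Ivd and 3 in Mccc1.
Ivd: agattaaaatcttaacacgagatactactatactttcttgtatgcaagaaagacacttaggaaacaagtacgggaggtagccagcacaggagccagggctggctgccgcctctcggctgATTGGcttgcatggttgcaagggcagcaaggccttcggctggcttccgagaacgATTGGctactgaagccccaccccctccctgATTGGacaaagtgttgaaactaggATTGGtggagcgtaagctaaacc
Mccc1: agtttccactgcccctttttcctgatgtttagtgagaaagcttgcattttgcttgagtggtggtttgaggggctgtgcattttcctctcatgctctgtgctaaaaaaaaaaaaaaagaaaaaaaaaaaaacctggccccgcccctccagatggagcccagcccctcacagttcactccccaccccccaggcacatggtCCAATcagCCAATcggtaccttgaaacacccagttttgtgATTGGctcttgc

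In the valine branch, Hibch, the hydrolase that frees 3-hydroxyisobutyrate from CoA, had 285, 267 and 255 CPM in the wild-type mice and 175, 164 and 198 CPM in the KO mice. Every KO mouse was below every wild-type mouse. The mean fell from 269 ± 15.1 to 179 ± 17.4 CPM (SD, n = 3), a log2 fold change of -0.59 ± 0.11 (SE, edgeR adjusted p = 0.00232). This was the smallest change among the 6 decreases, and it was not called under library size alone (-0.16) or quantile normalization (-0.30, limma adjusted p = 0.0522). The enzymes on either side of Hibch fell by more under TMM. Log2 fold changes were -1.01 for Acad8, the isobutyryl-CoA dehydrogenase, -1.41 for Hibadh, which oxidises 3-hydroxyisobutyrate, and -1.16 for Aldh6a1, which makes propionyl-CoA from the product, and these differences from Hibch were not tested. The isoleucine and shared enzymes Acadsb, Echs1, Hsd17b10 and Acat1 had log2 fold changes of -0.96, -1.19, -1.37 and -1.58. Hibch occupies 52844929 to 52920986 of chromosome 1, plus strand.

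Of the PCC genes, that of the alpha subunit fell more. Pcca, which encodes the alpha subunit that carries biotin, had 225, 223 and 215 CPM in the wild-type mice and 66.4, 91.4 and 81.1 CPM in the KO mice. The highest KO value, 91.4 CPM, was far below the lowest wild-type value, 215 CPM. The mean fell from 221 ± 5.28 to 79.6 ± 12.6 CPM (SD, n = 3), to 36.0% of wild-type, a log2 fold change of -1.47 ± 0.13 (SE, edgeR adjusted p = 3.06e-05). Pccb, the beta subunit, had 515, 538 and 489.7 CPM against 285, 318 and 376 CPM. The groups did not overlap either, and the mean fell from 514 ± 24.1 to 326 ± 46.3 CPM (SD, n = 3), a log2 fold change of -0.65 ± 0.13 (SE, edgeR adjusted p = 0.00259). The call for Pccb was lost under library size alone (-0.23) and quantile normalization (-0.30, limma adjusted p = 0.0710), whereas that for Pcca was kept under both. The log2 ratio of Pcca to Pccb was -1.20, -1.27 and -1.19 in wild-type mice and -2.10, -1.80 and -2.21 in the KO mice. The wild-type ratios lay close together and all KO ratios were lower, by -0.82 on average, in a ratio chosen after the values had been seen. The last exon of Pcca is overlapped on the opposite strand by Ggact, which had 31.1 CPM in wild-type and 22.9 CPM in KO BAT and did not pass the test. The next enzymes of the route, Mcee and Mut, which carry methylmalonyl-CoA on to succinyl-CoA, had log2 fold changes of -1.74 and -0.87. Mcee had the most negative change of all the BCAA enzymes listed here.

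The promoter of Pcca is shown because Pcca fell most of the 10 genes. The gene occupies 122534324 to 122891100 of chromosome 14, plus strand, its 250 bases are chr14:122534078-122534327, and the capitals are 1 CCAAT box on the opposite strand. Pccb occupies 100982032 to 101034898 of chromosome 9, minus strand.
Pcca: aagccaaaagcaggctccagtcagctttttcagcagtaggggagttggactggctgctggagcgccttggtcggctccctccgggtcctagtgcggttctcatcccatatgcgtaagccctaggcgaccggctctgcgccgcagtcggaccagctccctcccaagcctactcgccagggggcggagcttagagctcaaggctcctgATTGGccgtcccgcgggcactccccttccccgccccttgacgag

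Promoter windows of 300 bases (250 before and 50 after the start, RefSeq) were found for 9 of the 10 genes, Dbt being the other. They were searched on both strands for AAGGTCA (a motif bound by estrogen-related receptors), CCAAT (bound by NF-Y), GCGCATGCG (NRF1), AAGATGGCG (YY1) and TGATGNAA (ATF4). CCAAT was found in 5 of the 9, in Bckdhb, Bckdk, Ivd, Mccc1 and Pcca, and in 37.4% of 32851 windows of the same length. These 5 genes were of both kinds, with Bckdk, Ivd and Pcca called lower and Bckdhb and Mccc1 not called. GCGCATGCG was found in 1 of the 9, Pccb (1.75% of all windows), and AAGATGGCG in 1, Bckdha (1.4% of all windows). AAGGTCA (4.72% of all windows) and TGATGNAA (3.97%) had no match in these 9 windows. RefSeq starts of Bckdha and Ivd lay 220 and 40 bases from the GENCODE start of the transcript with the longest coding sequence. For the other genes with a window this distance was at most 14 bases. The matches describe the letters of these windows and do not show binding.

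Of 14 other enzymes of the route, 13 were lower, 1 was higher (Bcat1) and none failed the test, with a median log2 fold change of -1.17. In all 13 that fell, every KO mouse was below every wild-type mouse. The summed level of the 14 ran from 5108 to 5549 CPM in wild-type BAT and from 2009 to 2277 CPM in KO BAT. The median of the 10 enzymes, -0.62, was nearer 0, and 2 of them fell by more than 2-fold (Ivd and Pcca), against 9 of the other 14.

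**Figure D3:**
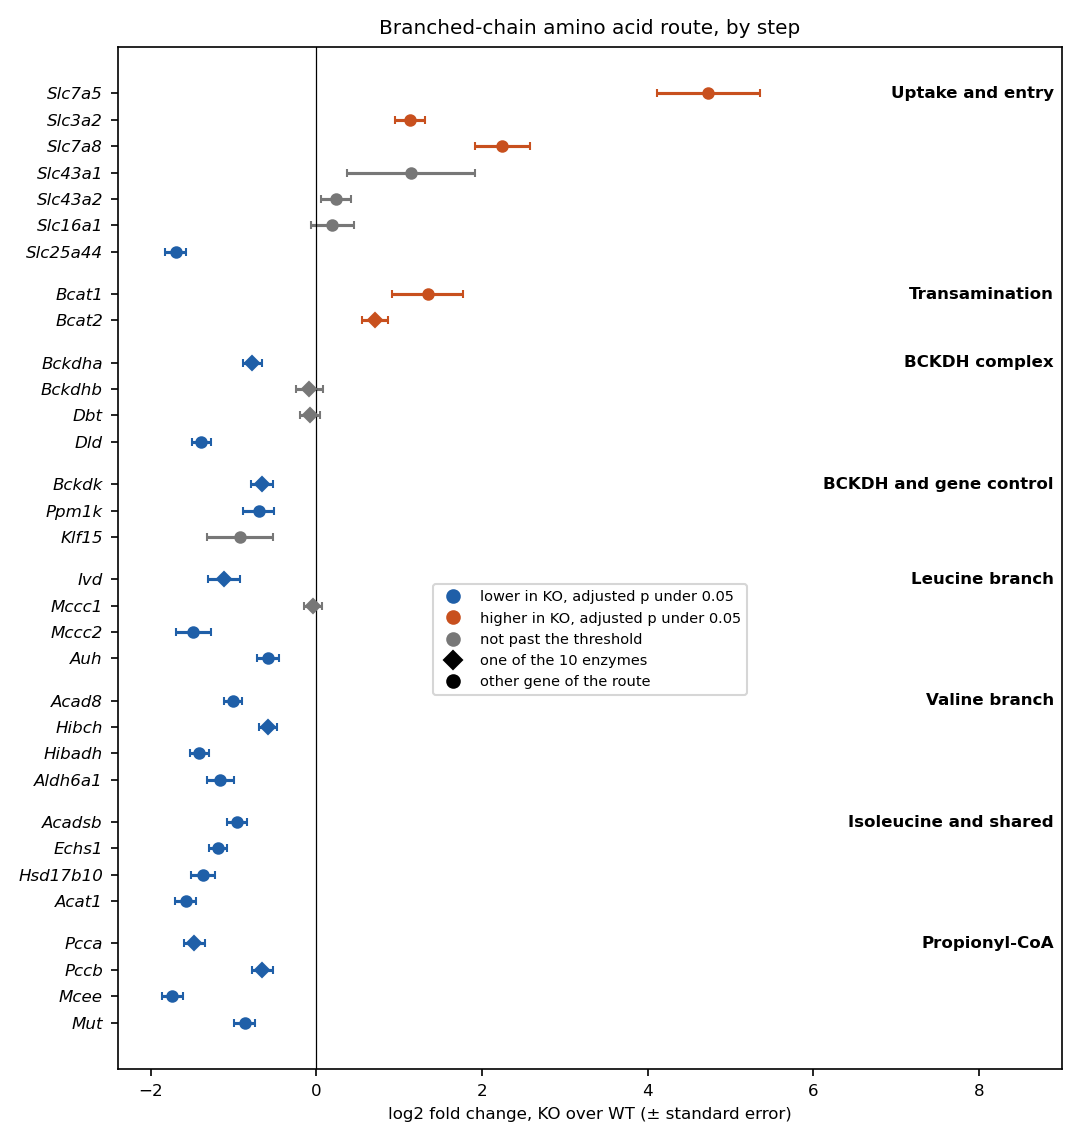
Log2 fold change of KO over wild-type with its standard error for genes of the BCAA route, ordered by step, with diamonds for the 10 enzymes and circles for other genes, blue for lower, orange for higher and grey for not past the threshold. Blue points fill the steps after BCKDH apart from Mccc1, orange points lie in uptake and transamination, and the point of Slc7a5 is a fitted value that rests on wild-type counts under the floor.

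Of 9 genes for entry and control, 2 were lower, 3 were higher and 4 did not pass the test. Slc25a44, the mitochondrial BCAA carrier, had 212, 209 and 247 CPM in the wild-type mice and 72.1, 74.2 and 59.8 CPM in the KO mice. The groups were far apart, and the mean fell from 223 ± 20.9 to 68.7 ± 7.82 CPM (SD, n = 3), a log2 fold change of -1.70 ± 0.13 (SE, edgeR adjusted p = 1.46e-05). At the plasma membrane, 3 of 6 listed transporter genes were higher. Slc7a5, the light chain of the large neutral amino acid transporter LAT1, was counted 0, 2 and 1 times in wild-type BAT and 31, 24 and 58 times in KO BAT, at least 9.68-fold higher against a floor of 3 counts per library (edgeR adjusted p = 0.000297). Slc3a2, the heavy chain it shares with other transporters, rose from 131 ± 33.9 to 288 ± 24.0 CPM (SD, n = 3; log2 fold change 1.13, edgeR adjusted p = 0.000831). Slc7a8, the LAT2 light chain, rose from 3.31 ± 1.58 to 15.9 ± 2.69 CPM (SD, n = 3; log2 fold change 2.25, edgeR adjusted p = 0.000552). The rise of these 3 genes accompanied that of the macrophage and fibroblast markers, and the part of those cells in it was not tested. Slc43a1, Slc43a2 and Slc16a1 did not pass, with log2 fold changes of 1.14, 0.24 and 0.19, but Slc43a2 passed under library size alone (0.65). Slc43a1 was counted 8, 28 and 12 times in the KO mice, and without KO mouse 2 its log2 fold change was 0.0687. Slc16a1, a transporter of lactate and keto acids, had 241, 238 and 489.2 CPM in the wild-type mice, and without wild-type mouse 3 its log2 fold change was 0.61 and passed (edgeR adjusted p = 0.0104). Klf15, a transcription factor known to control BCAA enzyme genes, had 59.0, 61.9 and 19.2 CPM against 16.9, 33.5 and 24.1 CPM. The groups overlapped through wild-type mouse 3 alone, and the log2 fold change of -0.92 (edgeR adjusted p = 0.0859, or 0.0451 with no filter on low counts) became -1.30 and passed without that mouse (edgeR adjusted p = 0.00207).

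Genes that supply the cofactors of these enzymes and carry their electrons were mostly lower, 8 of 12, with 1 higher, 3 not called and a median log2 fold change of -0.81. Etfa, Etfb and Etfdh, through which IVD and the other acyl-CoA dehydrogenases pass electrons to the respiratory chain, had log2 fold changes of -1.06, -1.04 and -1.68. Etfb was the exception under quantile normalization, at -0.24 and not called. Lias and Lipt1, which make and attach the lipoate of the E2 core, both had -0.81, and Lipt1 was not called under library size alone. Of the genes that prepare cobalamin for methylmalonyl-CoA mutase, Mmaa (-1.34), Mmab (-1.31) and Mmachc (-0.63, not called under library size alone) were lower. Mmadhc, of the same route, was higher by 0.38 (edgeR adjusted p = 0.0279), a call that was lost without wild-type mouse 1 or 3 or KO mouse 1 or 3, where its log2 fold change was between 0.30 and 0.36, and with the muscle covariate (0.18). Hlcs and Btd, which attach and recycle the biotin of PCC and MCC, did not pass the test, nor did Lipt2.

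The BCAA enzymes were set beside 3 further mitochondrial lists to show the range of change. All 13 genes of fatty acid oxidation were lower, with a median log2 fold change of -1.45, from -1.84 for Slc25a20 to -0.82 for Decr1. Of 15 genes of the citrate cycle, 13 were lower and 1 was higher, with a median of -1.08 and the most positive value, 0.62, in Idh2. Under quantile normalization 8 of these 15 were lower and 2 higher, and Idh2 was not called with the muscle covariate. Of 15 genes for breakdown of other amino acids, 11 were tested, of which 5 were lower and 4 higher, with a median of -0.29 that turned to 0.13 under library size alone, from -1.04 for Gcsh to 1.45 for Gpt2. Under TMM the median of the 10 BCAA enzymes stood between this list and the other 2. Under quantile normalization it was -0.30, less negative than for other amino acids (-0.50), the citrate cycle (-0.46) and fatty acid oxidation (-0.92). No list was tested against another.

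**Figure D4:**
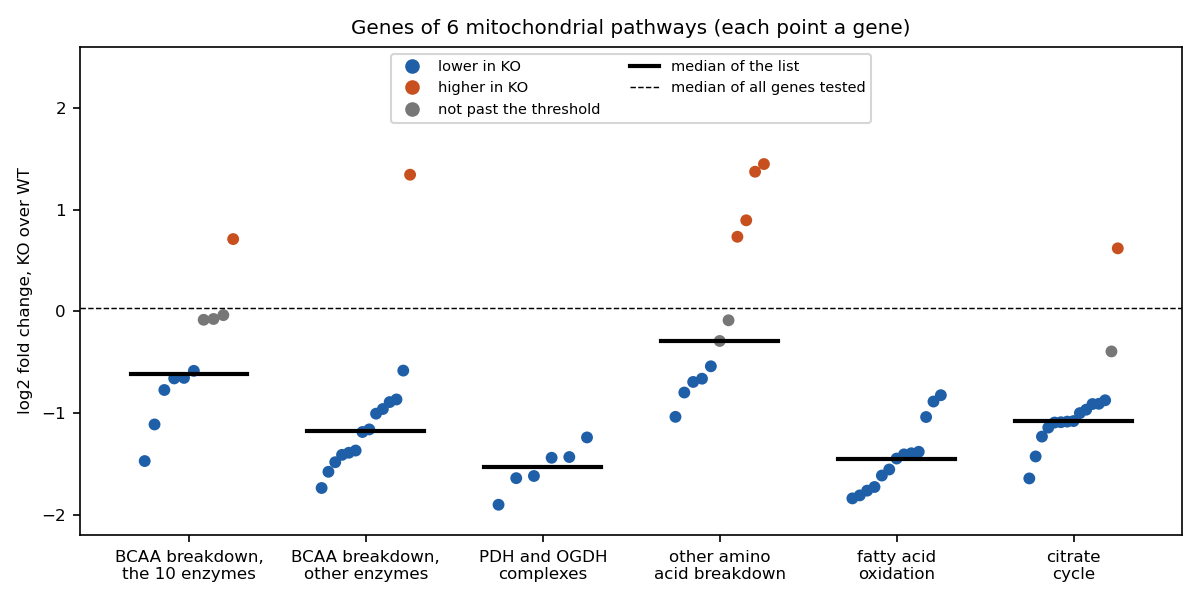
Log2 fold change of KO over wild-type for each tested gene of 6 lists, each point a gene, with a heavy line at the median of the list and a dashed line at the median of all genes tested (0.033). List medians are -0.62 for the 10 enzymes, -1.17 for the other BCAA enzymes, -1.53 for PDH and OGDH, -0.29 for other amino acids, -1.45 for fatty acid oxidation and -1.08 for the citrate cycle.

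The mean profile of the 10 enzymes over the mice, as centred log2 CPM, was 0.21, 0.26 and 0.25 in wild-type mice and -0.40, -0.22 and -0.10 in the KO mice. The KO mice thus differed more among themselves than the wild-type mice did. Among 8721 other genes with a mean of at least 10 CPM, the profile closest by root mean square distance over the 6 mice was that of Tmem126a, which encodes a mitochondrial inner membrane protein, at 0.0226. Pkn2 (0.043), Psmg1 (0.0452), Hsdl2 (0.0478) and Trap1 (0.0493) came next. As their choice by closeness to this profile implies, all 5 were lower, with log2 fold changes between -0.45 and -0.53. None of the 5 was called under library size alone. With the muscle covariate Tmem126a and Hsdl2 were not called (edgeR adjusted p = 0.056 and 0.0664), nor was Hsdl2 under quantile normalization (-0.18, limma adjusted p = 0.154).

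**Figure D5:**
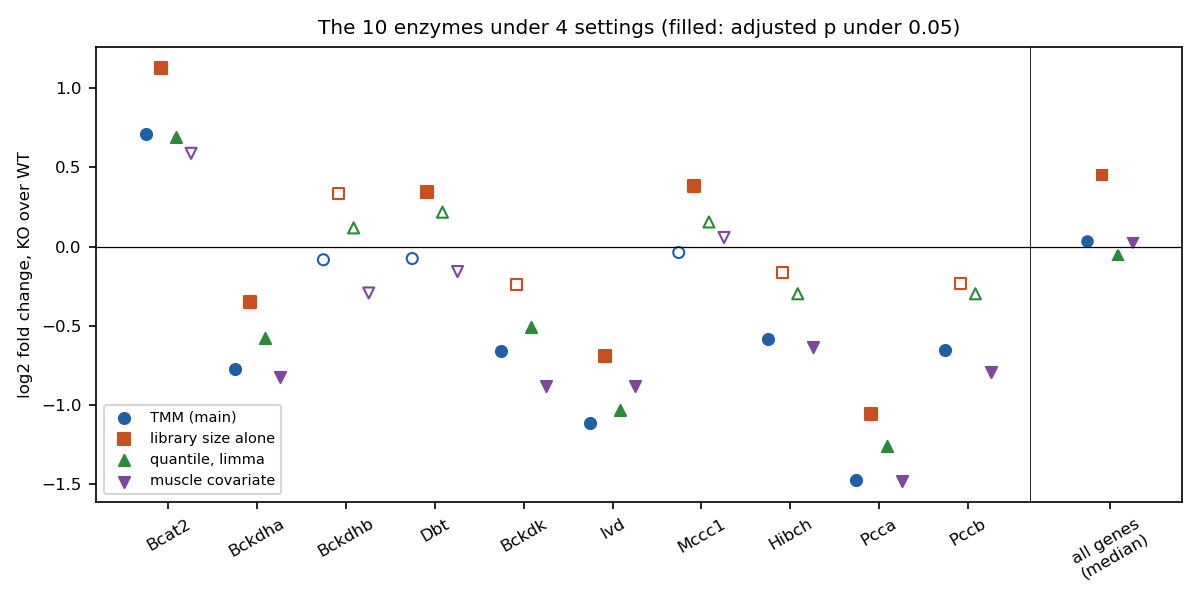
Log2 fold change of the 10 enzymes and median of all genes tested under TMM scaling, library size alone, quantile normalization with limma, and TMM with the muscle markers as a covariate, with filled symbols at an adjusted p under 0.05 (symbols of the all-gene median are all filled). Bckdha, Ivd and Pcca are filled and below 0 under all 4, Bcat2 is above 0 under all 4 and open with the muscle covariate, and Bckdhb, Dbt and Mccc1 lie on both sides of 0.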

How the data were processed

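BAT RNA of 3 wild-type and 3 Letmd1 KO mice was sequenced as single-end reads of 75 bases from QuantSeq 3′ libraries. The authors aligned the reads with Bowtie2 (mm10 in the submitters' processing notes) and used Bedtools to count alignments per gene, multiple ones included. The deposited values are whole-number counts of each mouse, without the quantile normalization named in the authors' methods. Versions, annotation and use of strand are not given in the sources used here. A read with several alignments can be counted for more than 1 gene. No pseudogene named by the symbol of any of the 10 enzymes followed by ps was found in the annotation. Pseudogenes under other names, such as Gm4596 within the Dbt locus, were not checked for likeness to the enzymes.

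The test was made with edgeR 4.0.16 in R 4.3.3 (TMM scaling, quasi-likelihood test, default filter with a minimum count of 10 and total of 15, Benjamini-Hochberg adjustment over 12995 of 23282 genes, threshold 0.05). Of the rows, 5588 had no counts. DESeq2 1.42.0 and limma 3.58.1 served as alternatives, beside other scalings and filters, a threshold of 0.01, a replicate block, a muscle covariate and leaving out each mouse. CPM are counts relative to the TMM-scaled library size, and log2 ratios used a prior count of 2. A floor of 3 counts was 0.176 to 0.397 CPM and covers counting error only. No library was a repeat of another (within a genotype, chi-square divided by its degrees of freedom was 11.5 to 34.0). The edgeR step was tested on simulated counts with few changed genes, as many raised as lowered. That setting does not bear on how these libraries should be scaled. Exact permutation tests of ratios were two-sided.

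Samples were grouped by the genotype in the labels. The members and lists were chosen with earlier results of these data known. Genes named are the 10 enzymes, all tested genes of the other BCAA enzyme list and of the entry and control list, called cofactor genes, the extremes of each comparison list, Letmd1 and the 5 nearest profiles. Dlat, Dlst, genes over a last exon, cofactor genes not called, and the genes of the closing observations were added later. A few genes of the lists are counted but not reported here by name. Positions are from GENCODE vM21 (GRCm38). Promoters are from RefSeq (GRCm38.p6), and where 2 windows were listed the one nearest the start of the transcript with the longest coding sequence was taken.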

Additional observations from a re-analysis of the deposited data

How the results depend on the processing

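With 3 mice per genotype and 6669577 to 14574273 counts per mouse, Bcat1 and Slc7a5 rest on few counts, and the intervals of Bckdhb, Dbt and Mccc1 come from the spread between mice. RLE size factors and DESeq2 changed no call of the 56 genes refitted one by one. Under library size alone, 1368 genes were lower and 5899 higher, 3 of the 10 enzymes lower and 3 higher, 1 entry and control gene lower, and the median of the 10 enzymes was -0.1993. Under quantile normalization with limma that median was -0.2977, under the filter at a mean of 50 counts -0.5672 and with the muscle covariate -0.7152. No other BCAA enzyme was higher (0 in place of 1) under quantile normalization, an adjusted p under 0.01 or the muscle covariate. The count was also 0 under the filter at 50, which removed Bcat1 before the test. A threshold of 0.01 called 3939 genes, 1985 of them higher, with 1 entry and control gene lower and 0 cofactor genes higher. The muscle covariate called 3507 genes, 1740 lower and 1767 higher, with 0 of the 10 enzymes higher, 1 entry and control gene lower and 0 cofactor genes higher. The cause of these shifts was not tested.

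Without KO mouse 3, Bckdhb was at -0.2551, and without wild-type mouse 2, Mccc1 was at -0.1146. Slc16a1 was at 0.6131 and called without wild-type mouse 3. Bckdhb turned to 0.34 (library size alone), 0.12 (quantile) and 0.015 (without KO mouse 2), and Dbt to 0.35 and 0.22 under the first 2 of these. Mccc1 turned to 0.38 (library size alone), 0.16 (quantile), 0.0155 (filter at 50), 0.0577 (muscle covariate) and 0.0143 (without KO mouse 1). Slc43a1 turned to -0.16 under quantile normalization and Slc16a1 to -0.0013 without wild-type mouse 2. Leaving out each mouse kept 6 of the 10 enzymes lower and 1 higher every time, gave 4842 to 5868 called genes, a median of the 10 enzymes between -0.6985 and -0.5656, 1 to 3 entry and control genes lower, 0 to 1 cofactor genes higher and 0 to 1 other BCAA enzymes higher. The ratio of Ppm1k to Bckdk then ran from -0.1573 to 0.1861, that of Bcat2 to Bcat1 from -1.2323 to -0.2512 and that of Bckdk to Bckdha from 0.0159 to 0.2039. The deviations of same-numbered mice had correlations of 0.0691, -0.1112 and -0.0865, and those of different-numbered mice ran from -0.0931 to 0.1912. With 3 mice per genotype these values cannot decide whether the numbers pair the mice. With the replicate block, the cofactor gene Mmadhc was not called (0 higher), and 6 of the 10 enzymes were lower and 1 higher.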

Other observations

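BCAA transamination forms glutamate, and the listed genes that make or use glutamate moved in both directions. Got2, the mitochondrial aspartate aminotransferase, rose from 47.3 ± 4.44 CPM in wild-type to 122 ± 16.1 CPM in Letmd1 KO BAT (SD, n = 3; log2 fold change 1.37, edgeR adjusted p = 4.87e-05). Gpt2, the mitochondrial alanine aminotransferase, rose from 7.57 ± 1.39 to 20.8 ± 7.93 CPM (log2 fold change 1.45, edgeR adjusted p = 0.0029). Oat, the ornithine aminotransferase, rose by 0.90 on the log2 scale (edgeR adjusted p = 0.000544). In these 3 genes every KO mouse was above every wild-type mouse. Aldh4a1, which forms glutamate from proline breakdown, fell from 118 ± 11.2 to 74.5 ± 12.3 CPM (SD, n = 3; log2 fold change -0.66, edgeR adjusted p = 0.00389). Glud1, the glutamate dehydrogenase, was 288 ± 34.9 CPM in wild-type and 271 ± 7.27 CPM in KO BAT (SD, n = 3) and did not pass the test (log2 fold change -0.088, edgeR adjusted p = 0.565). These genes were picked from the list of other amino acid enzymes after their values were seen. Macrophage and fibroblast markers rose in the same mice, and their part in these values was not tested.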
